A study of Mus musculus with 2 samples.

Results

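The 7 genes Cebpa, Cebpb, Cebpd, Cebpe, Gfi1, Spi1 and Irf8 encode transcription factors that direct the making of neutrophils and of the lineages that branch off beside them. They were taken by name, not by their values, from 31053 genes counted in single immune cells of the mouse cochlea. Over 1285 cells all 7 were detected, from 234 UMIs of Gfi1 in 127 cells to 9694 UMIs of Cebpb in 810 cells. A UMI (unique molecular identifier) stands for 1 captured RNA molecule, and levels below are UMIs of the gene per 1000000 UMIs of the cells summed (CPM).

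C/EBP proteins are basic leucine zipper factors that bind DNA in pairs. C/EBP alpha, from Cebpa, carries stem and progenitor cells into the granulocyte and monocyte lineages, and C/EBP epsilon, from Cebpe, switches on the genes of the secondary granules, the antimicrobial vesicles filled during the myelocyte stage. C/EBP beta and C/EBP delta, from Cebpb and Cebpd, act in emergency granulopoiesis, in macrophages and in the acute phase response. PU.1, from Spi1, is an ETS factor of all myeloid cells and of B cells. Gfi1 is a zinc finger repressor that favours the neutrophil fate, while IRF8 favours monocytes and dendritic cells and restrains neutrophil output. Neutrophils are normally made in bone marrow and leave it once mature.

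The cells were living CD45+ cells (CD45 marks nearly all blood-derived immune cells) sorted from digested cochleae. They came from 4 pools, each of cochleae from 6 mice: day 3, day 7 and day 14 after noise exposure, and a control that the labels call both sham and untreated. No strain, sex or age is given in the labels used here. A hashtag antibody marked each pool, and all were captured together, so each condition is 1 pool and differences between days have counting error only. The p-values below compare cell classes across the 4 pools, or across 2 pools for progenitors against immature neutrophils. With 4 pools they measure how the class difference varies between pools of different conditions, with the spread partly shared over all genes. With 2 pools they rest on a spread shared over all genes, and say little about each gene's own.

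After filtering, 551 cells belonged to the day 3 pool, 216 to day 7, 177 to day 14 and 341 to sham. Their median depth was 8378, 7404, 7190.0 and 6528 UMIs per cell in that order, and the median mitochondrial share per cell was 2.41% to 3.96%. Marker genes placed 1155 cells in 15 classes and left 130 unassigned. Neutrophil stage was read from granule genes (Camp, Ngp, Ltf, Lcn2, Chil3, Fcnb and Cd177) as a share of their UMIs plus those of genes of released neutrophils (Retnlg, Csf3r, Cxcr2, Il1b, Msrb1, Ccl6 and Slpi). A share of at least 80% made a neutrophil immature, with or without cell cycle genes, and a share of at most 20% made it mature. Of 444 neutrophils placed by this share, 24 lay within 5 points of the 20% limit and 19 within 5 points of the 80% limit. The classes held 33 myeloid progenitors, 33 cycling and 120 non-cycling immature neutrophils, 95 intermediate and 196 mature neutrophils, and 61 mature neutrophils low in the general neutrophil markers, S100a8 and S100a9 among them. None of the 7 genes was used to place a cell. Progenitors held all 7 of their markers (Elane, Mpo, Prtn3, Ctsg, Ms4a3, Cd34 and Kit) at a summed 26569 CPM, beside 11814 CPM of 8 general neutrophil markers, 2527 CPM of 7 granule markers, 799 CPM of 6 monocyte markers, 323 CPM of 7 mast cell or basophil markers and 63.1 CPM of 7 macrophage markers. Gate genes themselves are not results here.

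Among the C/EBP genes, Cebpe marked the granule-making stages. Cebpe (chromosome 14, GRCm38 positions 54710360 to 54712174, minus strand) stood at 219 CPM in progenitors, with a 95% Poisson interval of 193 to 248. It reached 663 CPM (615 to 714) in cycling immature neutrophils and 434 CPM (405 to 465) in non-cycling ones. Each neutrophil class after that was lower, with 140 CPM in intermediate and 44.7 CPM (33.4 to 58.6) in mature neutrophils, and the intervals of these classes were apart from each other. These intervals, like all below, cover counting error only. Outside the neutrophil line, monocytes had 13.5 CPM (12 UMIs in 6 of 45 cells), and macrophages, dendritic cells, mast cells or basophils and B cells had 0 UMIs. Neutrophils of all stages held 82.3% of Cebpe UMIs.

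Cebpb ran the other way. Cebpb (chromosome 2, 167688915 to 167690418, plus strand, a gene of 1 exon) was close to the same in progenitors, cycling and non-cycling immature neutrophils, at 263, 264 and 285 CPM with overlapping intervals. It stood at 888 CPM in intermediate, 3070.3 CPM in mature and 8850.0 CPM in S100-low mature neutrophils, whose intervals were apart. S100a8 and S100a9 took 31.7% of all UMIs in mature neutrophils and 2.17% in the S100-low class. With UMIs of the gate markers left out of the total, Cebpb stood at 476 CPM in cycling and 597 CPM in non-cycling immature neutrophils. Mature neutrophils then had 4950.4 CPM and S100-low mature ones 9362.2 CPM, in the same order and with a narrower gap between the mature classes. Gate markers took only 4.33% of UMIs in progenitors, so their likeness to immature neutrophils did not hold on that total. Monocytes (1349 CPM), mast cells or basophils (836 CPM) and macrophages (713 CPM) also held Cebpb. T, NK and B cells had 160, 153 and 118 CPM.

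Cebpd (chromosome 16, 15887286 to 15891031, plus strand) changed less with stage. It stood at 181 CPM in progenitors, at 389 to 408 CPM in cycling immature, non-cycling immature and intermediate neutrophils, at 665 CPM in mature and at 921 CPM (785 to 1074) in S100-low mature neutrophils. With UMIs of the gate markers left out of the total the last step turned round, to 974 CPM in S100-low mature and 1073 CPM in mature neutrophils. Monocytes and macrophages had 183 and 173 CPM, and lymphoid classes 1.03 to 5.34 CPM. Neutrophils held 80.8% of Cebpd UMIs.

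Cebpa was highest away from neutrophils. Cebpa (chromosome 7, 35119293 to 35121928, plus strand) had 277 CPM (207 to 363) in 12 mast cells or basophils and 242 CPM (189 to 306) in 27 macrophages, and these intervals overlapped. Monocytes followed at 126 CPM (104 to 152) and progenitors at 86.1 CPM (70.2 to 105), again overlapping. Within the neutrophil line it was lowest in immature cells, with 6.57 CPM in cycling and 14.8 CPM in non-cycling ones, against 36.1 CPM in mature neutrophils. S100-low mature neutrophils had 17.0 CPM from 3 UMIs, and with gate marker UMIs left out of the total they stood at 17.9 CPM, below the 31.1 CPM of non-cycling immature cells. B cell precursors and NK cells had 0 UMIs. By pool, monocytes had 140 CPM on day 3, 143 on day 7, 8.73 on day 14 and 150 in sham. The day 7 value came from 3 cells and the day 14 value from 5.

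Gfi1 was the scarcest of the 7. Gfi1 (chromosome 5, 107716657 to 107726036, minus strand) was highest in progenitors at 65.7 CPM (51.8 to 82.1). Cycling immature neutrophils followed at 34.7 CPM (24.5 to 47.9), and had 62.6 CPM with gate marker UMIs left out of the total. Gate markers took 44.5% of UMIs there and 4.33% in progenitors, so most of that gap depends on the total. Non-cycling immature neutrophils had 15.9 CPM, in the range of NK cells (14.2 CPM), B cells (13.3 CPM) and T cells (9.67 CPM). With gate marker UMIs left out, non-cycling immature neutrophils had 33.3 CPM. Gate markers took 52.3% of their UMIs but 0.949% to 1.73% in these lymphoid classes, so this likeness also depends on the total. B cell precursors had 18.7 CPM, with a Gfi1 UMI in 34 of 194 cells. Intermediate and mature neutrophils held 2 UMIs each, and monocytes and macrophages 0, where 3 UMIs would be 3.38 and 10.4 CPM.

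Spi1 (chromosome 2, 91082390 to 91115756, plus strand) was higher at each neutrophil stage up to the mature one. Its levels were 285 CPM in progenitors, 350 in cycling and 467 in non-cycling immature neutrophils, 629 in intermediate, 844 in mature and 882 in S100-low mature neutrophils. With gate marker UMIs left out of the total, intermediate and mature neutrophils had 1276 and 1361 CPM and S100-low mature ones 933 CPM, below both. Conventional dendritic cells had 492 CPM and monocytes and macrophages 426 CPM each, while B cells had 142 CPM and B cell precursors 97.3 CPM. T cells had 19.3 CPM, of which 78.6% came from 1 cell, and NK cells had 1 UMI.

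Irf8 was nearly absent from neutrophils and high in plasmacytoid dendritic cells. Irf8 (chromosome 8, 120736358 to 120756694, plus strand) stood at 1750.5 CPM (1604 to 1907) in plasmacytoid dendritic cells and 1678 CPM in 6 cells gated as conventional dendritic cells, with overlapping intervals. Those 6 cells held 1077 CPM of monocyte markers beside 1061 CPM of dendritic ones and lay in the monocyte cluster under Leiden clustering, so their name is uncertain. Monocytes, NK cells and macrophages followed at 438, 416 and 381 CPM, then B cells at 253, B cell precursors at 136 and progenitors at 128 CPM. All neutrophil stages together held 1.98% of Irf8 UMIs. Cycling immature neutrophils had no Irf8 UMI in 33 cells, where 3 UMIs would be 2.82 CPM, and of the 29.0 CPM in intermediate neutrophils 90.6% came from 1 cell.

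**Figure D1:**
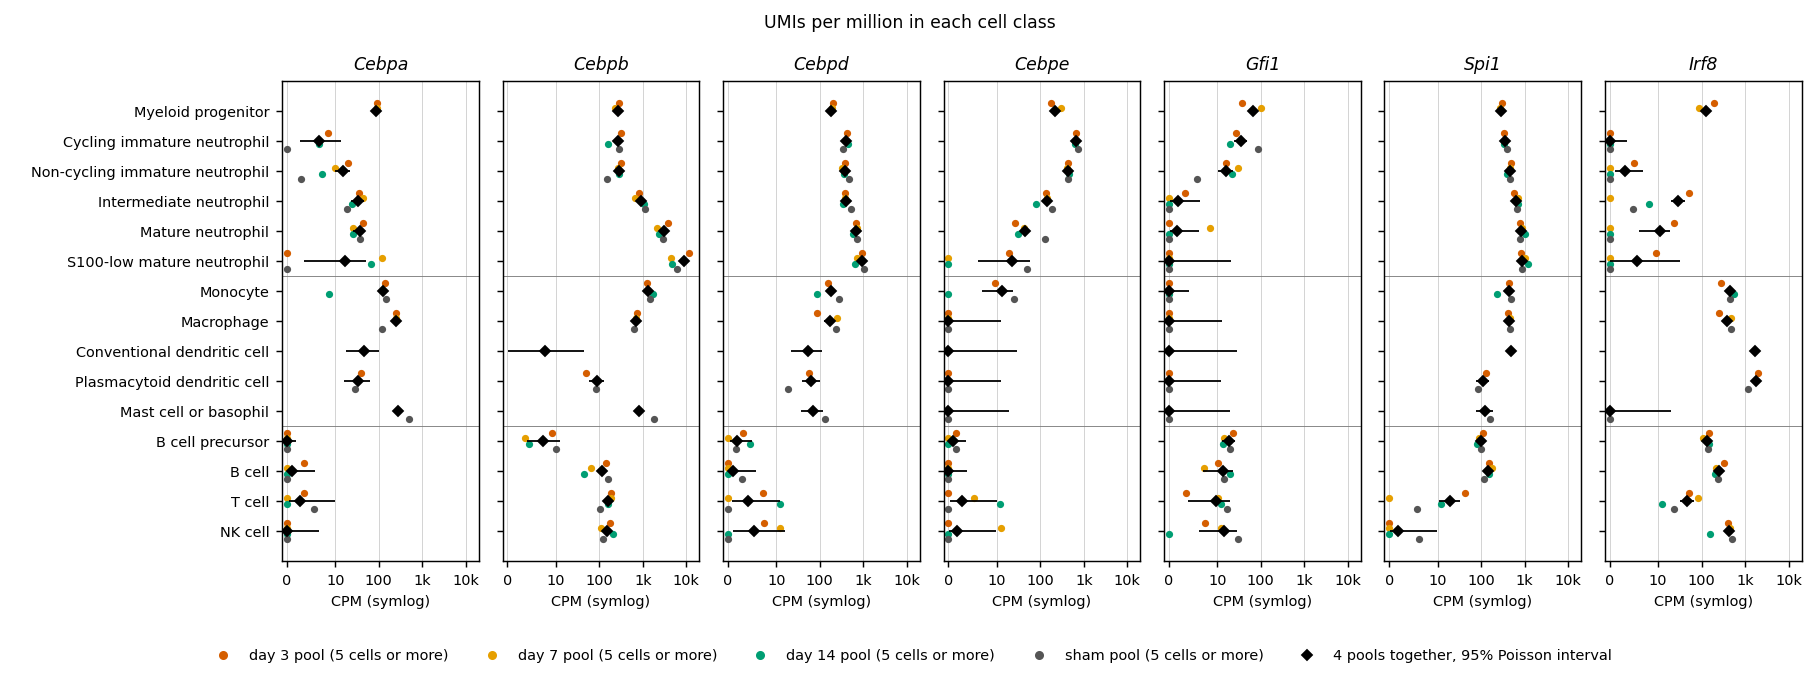
Level of each of the 7 genes in each cell class, as CPM on a symmetric log axis that includes 0. Coloured points are pools with 5 or more cells, and black diamonds with bars are the 4 pools together with a 95% Poisson interval. Cebpe peaks in cycling immature neutrophils at 663 CPM, Cebpb in S100-low mature neutrophils at 8850.0 CPM, and Irf8 in plasmacytoid dendritic cells at 1750.5 CPM.

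Promoter sequence was read for genes of this programme from RefSeq on GRCm38.p6, in windows of 250 bases before to 50 after the annotated start. Of the 7 genes, 4 had a window (Cebpa, Cebpb, Gfi1 and Irf8). Windows were searched on both strands for TTGCNNAA (a C/EBP motif), GAGGAAG (PU.1), the composite motif shared by ETS and IRF factors and AAATCAC (the core bound by GFI1). GAGGAAG and the composite motif share the ETS core and can overlap. TTGCNNAA was found in 5 of 11 secondary and tertiary granule genes with a window (45.5%) and in 2 of 6 primary granule genes (33.3%), while 10.8% of all 32851 windows held it. GAGGAAG was found in 4 of 6 primary and 3 of 11 secondary and tertiary granule genes, beside 13.6% of all windows, and the composite motif in 1 of 11 secondary and tertiary granule genes, beside 2.72%. AAATCAC was found in 2 of those 11, beside 3.2%. Of the 6 windows of Cebpa, Cebpb, Gfi1 and Irf8, 1 of Gfi1 held TTGCNNAA, 143 bases before the start, and 1 of Irf8 held AAATCAC, 176 bases before the start. No window of these genes held the other 2 motifs. A match is a run of letters and does not show binding. The 6 windows below are shown because they carry these matches, in Gfi1 and Irf8 themselves and in Ngp, Ltf, Lcn2 and Fcnb, granule genes that also set the neutrophil stage here. Capitals mark TTGCNNAA or its match on the other strand, except in Irf8, where they mark AAATCAC, which lies on the other strand.
Gfi1, chr5:107725756-107726055, minus strand: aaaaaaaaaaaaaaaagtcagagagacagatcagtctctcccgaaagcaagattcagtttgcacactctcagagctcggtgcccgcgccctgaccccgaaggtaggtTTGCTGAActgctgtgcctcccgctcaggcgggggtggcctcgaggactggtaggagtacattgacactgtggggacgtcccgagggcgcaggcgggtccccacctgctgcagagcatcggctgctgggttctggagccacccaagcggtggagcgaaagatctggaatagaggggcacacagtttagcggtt
Irf8, chr8:120736108-120736407, plus strand: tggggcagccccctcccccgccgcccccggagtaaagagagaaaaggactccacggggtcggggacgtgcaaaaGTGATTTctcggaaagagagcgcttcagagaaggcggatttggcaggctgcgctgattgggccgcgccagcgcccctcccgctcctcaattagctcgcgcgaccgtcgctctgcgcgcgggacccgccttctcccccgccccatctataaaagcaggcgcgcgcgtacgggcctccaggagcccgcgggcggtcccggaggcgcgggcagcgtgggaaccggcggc
Ngp, chr9:110419558-110419857, plus strand: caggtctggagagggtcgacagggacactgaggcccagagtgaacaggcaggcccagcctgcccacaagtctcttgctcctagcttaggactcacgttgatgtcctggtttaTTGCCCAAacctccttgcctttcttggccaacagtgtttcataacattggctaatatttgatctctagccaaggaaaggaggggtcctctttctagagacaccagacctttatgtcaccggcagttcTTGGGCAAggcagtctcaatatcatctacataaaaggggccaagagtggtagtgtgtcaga
Ltf, chr9:111019042-111019341, plus strand: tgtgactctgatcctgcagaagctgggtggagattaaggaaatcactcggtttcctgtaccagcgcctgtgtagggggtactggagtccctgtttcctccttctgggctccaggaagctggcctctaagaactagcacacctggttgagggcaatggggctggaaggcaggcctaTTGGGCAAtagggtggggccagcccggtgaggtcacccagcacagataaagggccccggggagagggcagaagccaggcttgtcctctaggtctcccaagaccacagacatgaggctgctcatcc
Lcn2, chr2:32387690-32387989, minus strand: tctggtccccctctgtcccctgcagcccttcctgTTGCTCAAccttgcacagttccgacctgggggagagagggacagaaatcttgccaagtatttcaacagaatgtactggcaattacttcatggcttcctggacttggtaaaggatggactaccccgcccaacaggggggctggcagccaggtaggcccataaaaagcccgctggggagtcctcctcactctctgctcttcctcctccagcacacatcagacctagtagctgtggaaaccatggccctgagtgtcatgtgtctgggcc
Fcnb, chr2:28084829-28085128, minus strand: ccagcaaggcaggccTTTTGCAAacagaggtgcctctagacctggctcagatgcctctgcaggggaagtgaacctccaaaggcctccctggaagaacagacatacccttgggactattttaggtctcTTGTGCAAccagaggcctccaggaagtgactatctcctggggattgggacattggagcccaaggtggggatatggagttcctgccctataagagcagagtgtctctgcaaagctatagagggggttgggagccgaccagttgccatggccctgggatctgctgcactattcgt

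Sorting the 444 neutrophils by granule share, in 9 steps from 99% or more down to 2.5% or less, showed how the factors differed along maturation. Cebpe had 626 CPM in the first step, 308 in the third, 131 in the fifth, 57.7 in the seventh and 28.7 in the last. Cebpb had 207 CPM in the first, 382 in the third, 776 in the fifth, 1575 in the seventh and 4225 in the last. Cebpe was lower and Cebpb higher at every step. Spi1 was also higher at every step, with 356 CPM in the first and 867 in the last, though some neighbouring steps differed within counting error. Cebpd stayed between 360 and 467 CPM over the first 7 steps and reached 678 and 788 CPM in the last 2. Gfi1 had 24.2 and 34.7 CPM in the first 2 steps and 6.43 CPM or less after them. The steps share their library and hold cells from all pools, and granule and Cebpe RNA come from the same cells.

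**Figure D2:**
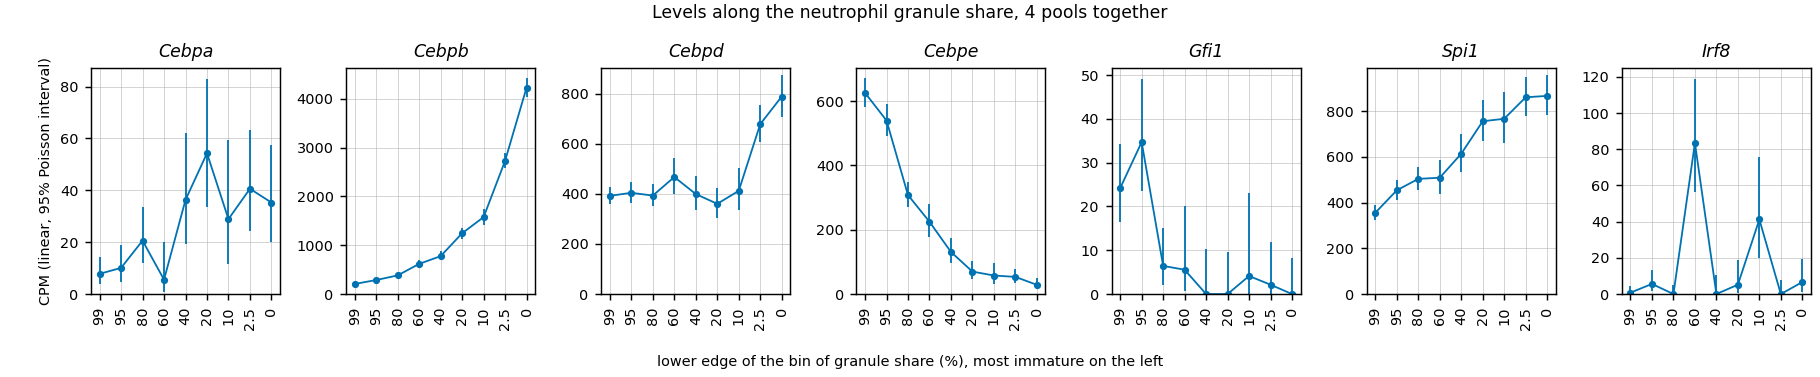
Level of the 7 genes along neutrophil maturation, as CPM on a linear axis with 95% Poisson intervals, against the share of granule genes in 9 steps of the 444 neutrophils with the most immature on the left. Cebpe goes down over all steps while Cebpb and Spi1 go up, and Cebpd is higher in the last 2 steps. The peaks of Irf8 rest on few cells, 1 of which holds 90.6% of Irf8 UMIs in intermediate neutrophils and another 76.9% of those in mature ones.

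Immature neutrophils (153 cells) were then set against mature ones (257 cells, both mature classes) with edgeR's quasi-likelihood test and Benjamini-Hochberg adjustment, over 4 pools with the pool as a block. Of the 7 genes, 6 could be tested and all 6 passed an adjusted p of 0.05, Cebpe and Gfi1 higher and the other 4 lower in immature cells. Over all 3856 genes tested 63.0% passed, 34.2% higher and 28.8% lower, so the count of 6 is read against a background in which most genes passed.

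Cebpe had 505, 414, 580 and 540 CPM in immature neutrophils of the day 3, day 7, day 14 and sham pools, against 25.2, 39.5, 28.1 and 116 CPM in mature ones. Every immature value was above every mature value, and the log2 fold change was 3.87 ± 0.31 (SE, adjusted p = 6.572e-07). Cebpb had 319, 273, 202 and 197 CPM in immature neutrophils, against 4931, 2257, 2501 and 3549 CPM in mature ones. No immature value came near a mature one, and the log2 fold change was -3.36 ± 0.20 (adjusted p = 9.146e-08). Gfi1 had 19.4, 30.3, 20.4 and 33.2 CPM in immature neutrophils, against 0, 7.90, 0 and 0 CPM in mature ones. The 67 UMIs in immature against 2 in mature cells gave a ratio of 15.2 with a 95% counting interval of 4.05 to 128, and a log2 fold change of 4.18 ± 0.79 (adjusted p = 5.21e-04).

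The other changes were smaller. Spi1 had 434, 465, 360 and 431 CPM in immature neutrophils, against 804, 869, 1010 and 804 CPM in mature ones, a log2 fold change of -0.67 ± 0.18 (adjusted p = 0.0062). Cebpd had 393, 318, 412 and 423 CPM in immature neutrophils, against 709, 704, 598 and 769 CPM in mature ones, a log2 fold change of -0.47 ± 0.17 (adjusted p = 0.0272). The pools did not overlap for either gene. Cebpa had 16.1, 10.1, 6.79 and 1.95 CPM in immature neutrophils, against 37.1, 31.6, 28.1 and 30.2 CPM in mature ones, a log2 fold change of -1.32 ± 0.46 (adjusted p = 0.023). The Cebpa call was lost without the day 14 pool (adjusted p = 0.0519), with DESeq2 (0.0721) and with Leiden clusters in place of gates (0.2911). The Cebpd call was lost without the day 3 pool (0.1702) and the Spi1 call with Leiden clusters (0.0591). The Leiden immature clusters also took in 85 neutrophils gated as intermediate. Irf8, with 6 UMIs in immature and 14 in mature cells, was too low to test with the filter on low counts.

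Genes that these factors are known to act on were read from lists without the genes used as gates, beside the 34.2% of all genes higher and 28.8% lower. Of 8 acute phase targets of C/EBP beta and delta tested, 6 were lower in immature neutrophils and none higher, with a median log2 fold change of -3.27 against 0.09 over all genes. They included Ptgs2 (cyclooxygenase 2, log2 fold change -5.26), Cxcl2 (a neutrophil chemokine, -5.06) and Il1rn (the interleukin 1 receptor antagonist, -2.55). The 3 secondary or tertiary granule genes that were not gates were all higher, namely Itgb2l (2.44), Cybb (the oxidase subunit, 2.14) and Lyz2 (lysozyme, 0.75). PU.1 targets were mixed, with 5 higher and 8 lower of 17, from Cd68 (-3.78) and Ctss (cathepsin S, -3.68) to Cybb (2.14). Of 7 IRF8 targets 5 were lower, Cd74 (-4.99) and Irf1 (-2.57) among them, and 1 was higher. Cd74 had 4.44, 5.05, 9.06 and 5.85 CPM in immature neutrophils, against 457, 35.6, 42.1 and 45.2 CPM in mature ones, and 95% of its day 3 UMIs in mature neutrophils outside the S100-low class lay in 1 cell. Of 16 other fate factors 3 were higher, including Myb (2.99) and Ets1 (2.55), and 7 lower, including Zeb2 (-4.82) and Rara (-3.47). The share that passed in either direction was near the 63.0% of all genes. Socs3 (-3.99), a feedback inhibitor of cytokine receptors, led 5 lower of 7 signal transducers. In the C/EBP family and tribbles list 2 of 4 were lower, Ddit3 (-3.07) and Trib1 (-1.37), whose protein promotes breakdown of C/EBP alpha.

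**Figure D3:**
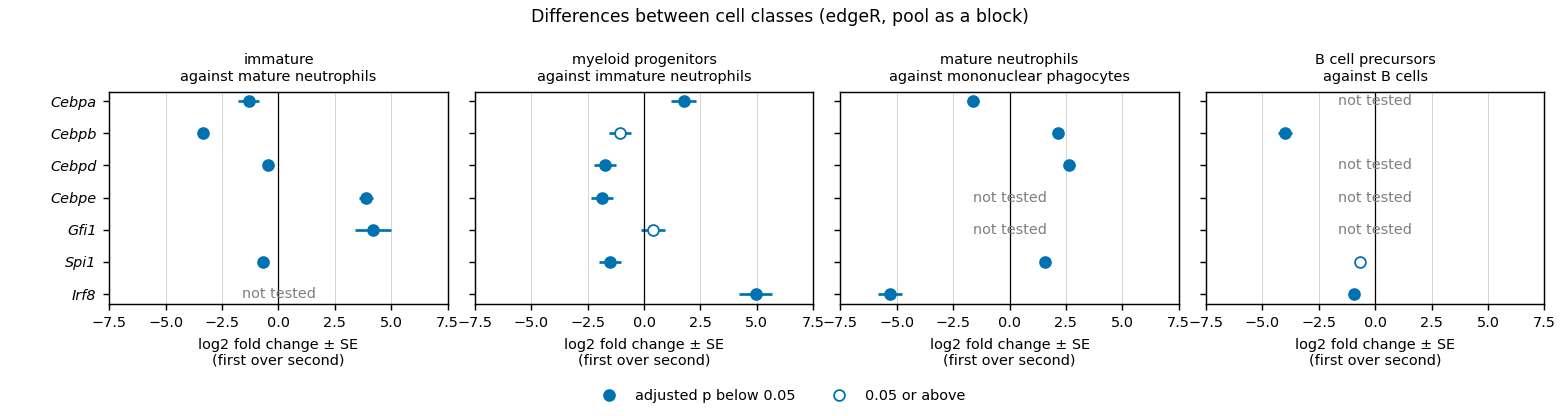
Log2 fold changes of the 7 genes in the 4 comparisons between classes from edgeR's quasi-likelihood test, with bars of 1 SE on either side and filled points where the adjusted p was below 0.05. Cebpe and Cebpb lie on opposite sides in immature against mature neutrophils (3.87 and -3.36), and Irf8 has the widest change of the 7 in progenitors against immature neutrophils (4.94) and in mature neutrophils against mononuclear phagocytes (-5.30).

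Progenitors held more Irf8 and Cebpa and less Cebpe, Cebpd and Spi1 than immature neutrophils. Only the day 3 and day 7 pools held at least 5 cells of both classes, 27 progenitors against 110 immature neutrophils. The p-values of this comparison thus rest on a spread shared over all genes, not on each gene's own spread between pools. Of the 7 genes, 5 passed the same test, Irf8 and Cebpa higher and Cebpe, Cebpd and Spi1 lower in progenitors, where 41.3% of 5179 genes passed, 20.9% higher and 20.4% lower. Irf8 had 189 and 88.7 CPM in progenitors of the day 3 and day 7 pools, against 3.33 and 0 CPM in immature neutrophils, a log2 fold change of 4.94 ± 0.72 (edgeR, adjusted p = 2.512e-10). Cebpa had 92.8 and 91.0 CPM in progenitors, against 16.1 and 10.1 CPM in immature neutrophils, a log2 fold change of 1.76 ± 0.55 (adjusted p = 0.0056). Both genes were higher in progenitors in each pool.

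Cebpe had 173 and 305 CPM in progenitors, against 505 and 414 CPM in immature neutrophils, a log2 fold change of -1.86 ± 0.50 (edgeR, adjusted p = 0.0012). Cebpd and Spi1 had log2 fold changes of -1.72 ± 0.48 (adjusted p = 0.0017) and -1.51 ± 0.49 (0.0073). Cebpb missed the threshold here, with 278 and 234 CPM in progenitors, against 319 and 273 CPM in immature neutrophils, and a log2 fold change of -1.07 ± 0.47 (adjusted p = 0.0539). It passed as lower in 4 of the 10 other settings that changed the fit, without the block (0.0182), with DESeq2 size factors (0.0278), with pools of at least 3 cells (0.0323) and with Leiden clusters (6.737e-05, log2 fold change -1.83). The Leiden clusters hold other cells: 43 unassigned cells and 12 mast cells or basophils lay with the 33 progenitors. The Leiden immature clusters also took in 85 intermediate neutrophils. Gfi1 had 37.1 and 102 CPM in progenitors, against 19.4 and 30.3 CPM in immature neutrophils, and a log2 fold change of 0.39 ± 0.53 (adjusted p = 0.5761).

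These values depend on scaling. S100a8 and S100a9 took 1.13% of UMIs in progenitors and 38.9% in non-cycling immature neutrophils, and without composition scaling the median of all genes moved to 1.08 from 0.16 on the log2 scale. On that scale Gfi1 passed as higher (1.30, adjusted p = 0.0254), Cebpd (-0.82, 0.0657) and Spi1 (-0.61, 0.1714) no longer passed, and Cebpe still did (-0.97, 0.0444). With DESeq2, and without the filter on low counts, Irf8 alone of the 7 passed. With stricter stage gates the Spi1 call was lost (0.0962).

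Of 15 PU.1 targets tested 12 were lower in progenitors and none higher, including Lyz2 (-6.67) and Cd33 (-5.74), beside 20.4% of all genes lower and a median of 0.16 over all genes. All 3 secondary granule genes outside the gates were lower. Among 21 other fate factors 7 were higher, led by Myc (6.18), and 6 lower, including Id2 (-4.42) and Ets1 (-3.66), beside 20.9% and 20.4% of all genes. Trib1 (-4.32) and the granule genes Cst7 (3.73) and Hp (haptoglobin, -2.63) also passed.

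Single progenitors were deep enough to read several factors together, at a median of 34285 UMIs per cell. A Gfi1 UMI was found in 24 of 33, a Cebpe UMI in 23 and an Irf8 UMI in 11. As a check on free RNA, monocytes (median 17168 UMIs) had Gfi1 in 0 of 45 cells and cycling immature neutrophils (31225 UMIs) had Irf8 in 0 of 33. The much shallower B cell precursors (6879 UMIs) had Cebpe in 2 of 194 cells. Monocytes did hold Cebpe, with 12 UMIs over the 45 cells (13.5 CPM), beside 219 CPM in progenitors. The monocyte check is weak for Gfi1, the scarcest of the 7 genes. S100a8 and S100a9 took 0.0583% of UMIs in monocytes and 1.13% in progenitors, so exposure to neutrophil RNA may differ. Irf8 and Gfi1 were found together in 7 cells, Irf8 without Gfi1 in 4, Gfi1 without Irf8 in 17 and neither in 5.

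Irf8 reached 3 UMIs or more in 6 progenitors, 1 or 2 in 5 and 0 in 22. These groups were made from Irf8 counts, so their values are a description with no test. Cebpe stood at 17.5 CPM (5.68 to 40.8) in the 6 cells, 149 CPM in the 5 and 314 CPM (275 to 358) in the 22. Gfi1 stood at 10.5 CPM (2.17 to 30.7), 49.7 CPM and 90.9 CPM (70.3 to 116) in the same order. Cebpa, at 84.0, 155 and 71.6 CPM, and Spi1, at 326, 280 and 270 CPM, had no such order. The 22 cells were not alike, with a Cebpe UMI in 17 of them and a Gfi1 UMI in 17. Some had much Cd34, little Elane and neither Cebpe nor Gfi1, such as 1 cell with 10 Cd34 UMIs and 1 Elane UMI. Another had 14 Cd34 UMIs and 0 of Elane. Low Cebpe and Gfi1 were thus not particular to cells with Irf8.

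The genes that gate progenitors and monocytes are given only to describe these cells. Elane, for neutrophil elastase, had 2566 CPM in the 6 cells with most Irf8 and 11660 CPM in the 22 without it, and Fcnb had 0 and 640 CPM. The monocyte genes Csf1r (102 and 0 CPM), Ccr2 (221 and 2.75 CPM) and F13a1 (655 and 17.9 CPM) had more in the 6 cells. Of these 6 cells 4 were from day 3, 1 from day 7 and 1 from day 14. No Irf8 UMI was found in the 3 progenitors of the sham pool. Progenitors made up 2.54% of cells on day 3, 6.02% on day 7, 1.69% on day 14 and 0.88% in sham.

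**Figure D4:**
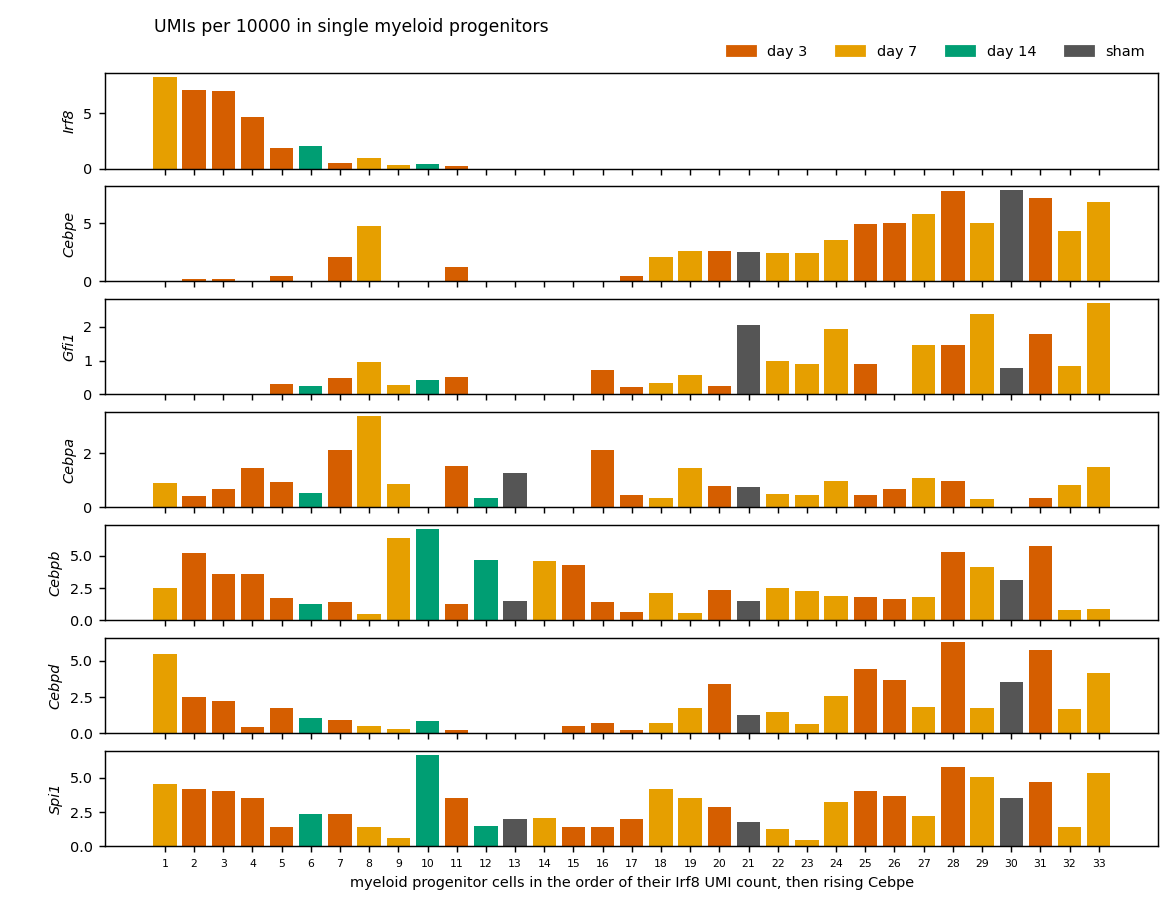
The 7 genes in each of the 33 single progenitors, as bars of UMIs per 10000 UMIs of the cell on linear axes, coloured by pool and ordered by falling Irf8 count and then by rising Cebpe. The first 6 cells, with 3 or more Irf8 UMIs, sit low for Cebpe and Gfi1, at 17.5 and 10.5 CPM. The 22 cells with no Irf8 have 314 and 90.9 CPM, but only 17 of them hold a Cebpe UMI.

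Mature neutrophils (257 cells) were set against the mononuclear phagocytes (78 cells). These were monocytes, macrophages and the 6 cells gated as conventional dendritic cells, whose name is uncertain. Those 6 cells held 215 of the 714 Irf8 UMIs of the mononuclear phagocytes. All 5 of the genes that could be tested passed under edgeR's quasi-likelihood test, and did so under each of the 14 other settings that changed the fit, where 74.6% of 4279 genes passed with the settings given above, 31.6% higher and 43.0% lower. Cebpd had 709, 704, 598 and 769 CPM in mature neutrophils of the day 3, day 7, day 14 and sham pools, against 142, 162, 92.5 and 240 CPM in mononuclear phagocytes, a log2 fold change of 2.65 ± 0.24 (adjusted p = 8.532e-09). Cebpb had 4931, 2257, 2501 and 3549 CPM in mature neutrophils, against 1107, 626, 1295 and 1170 CPM in mononuclear phagocytes, a log2 fold change of 2.14 ± 0.19 (adjusted p = 8.184e-09). Neither gene's groups overlapped.

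Spi1 had 804, 869, 1010 and 804 CPM in mature neutrophils, against 442, 449, 284 and 472 CPM in mononuclear phagocytes, a log2 fold change of 1.57 ± 0.23 (edgeR, adjusted p = 5.595e-06). Cebpa had 37.1, 31.6, 28.1 and 30.2 CPM in mature neutrophils, against 165, 167, 80.2 and 129 CPM in mononuclear phagocytes, a log2 fold change of -1.62 ± 0.28 (adjusted p = 4.372e-05). Irf8 had 20.8, 0, 0 and 0 CPM in mature neutrophils, against 262, 939, 771 and 663 CPM in mononuclear phagocytes, a log2 fold change of -5.30 ± 0.53 (adjusted p = 3.526e-08). Without the day 3 pool mature neutrophils held no Irf8 UMI, and the fitted value was then -10.35, which depends on the prior count and is no bound. Spi1 was the higher in neutrophils and Cebpa and Irf8 the lower in every pool. Cebpe, with 56 UMIs in mature neutrophils and 12 in mononuclear phagocytes, stood at a ratio of 4.54 (2.41 to 9.31 by counting). The fit with the settings given above did not test it, nor Gfi1. Without the filter on low counts their log2 fold changes were 3.15 ± 0.50 and 2.26 ± 2.45.

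The target lists were read beside 31.6% of all genes higher and 43.0% lower. Of 18 PU.1 targets 12 were higher in mature neutrophils, including Cd33 (3.92), and 4 lower, including Ctss (-5.07) and Fcgr1 (-3.36), beside a median of -0.37 over all genes. Of 11 IRF8 targets 8 were lower, led by Ciita, the activator of MHC class II genes (-7.57), and Cd74 (-5.86), while 2 were higher, including Bcl6 (1.52). Of 8 acute phase targets 5 were higher, including Il1rn (4.35), Ptgs2 (3.56) and Pim1 (1.38), and Socs3 (-1.52) was lower. Of 23 other fate factors 12 were lower, including Batf3 (-6.92), a factor of dendritic cells, and 6 higher, including Rara (1.90) and Klf2 (1.70).

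In the B lineage 3 of the 7 genes could be tested, and 2 passed, both lower in precursors (194 cells) than in B cells (161 cells), where 7.89% of 5371 genes passed, 2.36% higher and 5.53% lower. The 2 classes are not cleanly apart. Leiden clustering put 51 of the 161 B cells with the precursors, and B cells held 5892 CPM of precursor markers beside 7052 CPM of B cell markers. Cebpb had 9.18, 3.60, 4.48 and 9.95 CPM in B cell precursors of the day 3, day 7, day 14 and sham pools, against 142, 65.1, 44.5 and 162 CPM in B cells. No pool overlapped, and the log2 fold change was -3.99 ± 0.29 (edgeR, adjusted p = 4.583e-05). If all S100a8 and S100a9 UMIs in these cells were free neutrophil RNA, Cebpb from the same source would come to 3.25 CPM in precursors and 5.30 CPM in B cells. Irf8 had 151, 108, 148 and 141 CPM in precursors, against 329, 210, 198 and 242 CPM in B cells, a log2 fold change of -0.92 ± 0.19 (edgeR, adjusted p = 0.0168).

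The Irf8 call held in 6 of the 11 other settings that changed the fit and was lost without the day 3, day 7 or sham pool, with DESeq2 (adjusted p = 0.0638) and with a mitochondrial limit of 5%. Spi1 missed the threshold, with 109, 90, 80.7 and 97.8 CPM in precursors, against 152, 173, 153 and 114 CPM in B cells (log2 fold change -0.69 ± 0.21, edgeR, adjusted p = 0.0788), though it passed without the block (0.0285). Gfi1 had 38 UMIs in precursors and 13 in B cells, a ratio of 1.40 with an interval of 0.729 to 2.86 that includes no difference. Beside 5.53% of all genes lower, 6 of 11 PU.1 targets were lower in precursors and none higher, including Cybb (-3.25) and Ncf1 (-2.79). Of 8 IRF8 targets 3 were lower, namely Cd180 (-3.74), Cd74 (-3.56) and Ciita (-2.31). Erg (3.76) and Myb (0.91) were the 2 higher of 26 other fate factors.

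The days after noise were set against the sham pool within each class that held at least 15 cells in both, for genes with at least 20 UMIs over both pools. With 1 pool each there was no test, and all days share the sham pool. Past 1.5-fold in either direction were 9 of 31 gene and class pairs on day 3, 5 of 15 on day 7 and 2 of 9 on day 14. That is 29.0%, 33.3% and 22.2% of pairs. Over all genes measured by the same rule on day 3, the share past 1.5-fold was 26.9% in non-cycling immature, 28.6% in intermediate and 30.7% in mature neutrophils, 35.6% in monocytes, 17.4% in B cell precursors, 23.0% in B cells, 30.3% in T cells and 25.9% in NK cells. On day 7 it was 26.2% in intermediate and 25.1% in mature neutrophils, 24.9% in B cell precursors, 28.4% in B cells and 34.4% in T cells. On day 14 it was 25.4% in mature neutrophils, 29.2% in B cell precursors and 31.9% in B cells. The count of pairs among the 7 genes is near this background and is no result about them.

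The values themselves were as follows. Cebpb in mature neutrophils had 3772 CPM on day 3, 2090 on day 7, 2331 on day 14 and 2934 in sham. Against sham this was a ratio of 1.29 (95% counting interval 1.16 to 1.42) on day 3, 0.712 (0.626 to 0.810) on day 7 and 0.794 (0.697 to 0.905) on day 14, so day 3 was above sham and the later days below it. In intermediate neutrophils Cebpb was below sham on day 3 too, with a ratio of 0.722 (0.618 to 0.846), and on day 7 (0.578, 0.461 to 0.721). In non-cycling immature neutrophils Cebpb had 323 CPM on day 3 and 153 in sham, a ratio of 2.11 (1.57 to 2.87). The ratio was 0.915 in the Leiden immature clusters, which also held 85 intermediate and 29 cycling immature neutrophils by the gates. Day 3 thus differed in direction between neutrophil stages. The stage within a class moved as well. The median granule share in non-cycling immature neutrophils was 95.9% on day 3 and 97.8% in sham. Their mature markers had medians of 48.3 and 25.4 UMIs per 10000. In intermediate neutrophils the granule share was 52.0% on day 3, 43.6% on day 7, 37.2% on day 14 and 39.2% in sham. In mature ones it was 2.24%, 2.86%, 3.23% and 2.9%. The part of stage in these ratios was not tested.

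Cebpe in mature neutrophils had 26.3 CPM on day 3, 42.4 on day 7, 30.2 on day 14 and 132 in sham, with ratios of 0.199 (0.0954 to 0.405), 0.321 (0.135 to 0.711) and 0.228 (0.0754 to 0.585). The sham value rests on 21 UMIs, 42.9% of them in 1 cell, and the day 14 ratio was 1.05 with thinned cells. In non-cycling immature neutrophils, where Cebpe is abundant, the pools were alike in level, at 433, 414, 450 and 442 CPM. Cebpd in intermediate neutrophils had ratios of 0.733 (0.582 to 0.928) on day 3 and 0.713 (0.522 to 0.970) on day 7, and in non-cycling immature neutrophils 0.817 (0.681 to 0.984) on day 3. Spi1 in mature neutrophils was 1.27 times sham (1.01 to 1.60) on day 14.

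Outside neutrophils, monocytes on day 3 had ratios of 0.560 (0.396 to 0.788) for Cebpd and 0.630 (0.485 to 0.818) for Irf8. The Cebpd ratio turned to 1.59 with cells thinned to 2000 UMIs, and its direction is not firm. In B cells Cebpb was below sham on day 7 (0.401, 0.175 to 0.816, from 9 and 57 UMIs) and day 14 (0.274, 0.119 to 0.558, with 55.6% of the day 14 UMIs in 1 cell), while Irf8 on day 3 was at 1.36 (1.00 to 1.85). In T cells Cebpb was at 1.78 (1.02 to 3.24) on day 3 and at 1.78 (0.976 to 3.34) on day 7, and the day 7 ratio was 0.941 with thinned cells. Spi1 in B cells on day 7 was at 1.52 (0.879 to 2.59), Gfi1 in non-cycling immature neutrophils on day 3 at 2.65 (0.640 to 23.5) and Cebpa in intermediate neutrophils on day 3 at 1.90 (0.641 to 7.61), intervals that include no difference. Thinning turned that Cebpa ratio to 0.580, and the Gfi1 ratio was 0.980 in the Leiden immature clusters, which mix neutrophil stages. Pairs that rest on single cells or counts were Irf8 in intermediate neutrophils on day 3, with 96.7% of UMIs in 1 cell, and Cebpa in non-cycling immature neutrophils, with 24 UMIs on day 3 against 1 in sham and a ratio of 0.333 with thinned cells.

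Target genes of the factors were read in mature neutrophils of day 3 in the same way, where 30.7% of all genes were past 1.5-fold. Of 9 acute phase targets 2 were at least 1.5-fold above sham and none as far below it. Ptgs2 had 403 CPM on day 3 and 120 in sham, a ratio of 3.37 (2.11 to 5.71), though 63.2% of its 19 sham UMIs lay in 1 cell. Cxcl2 had 2121 CPM on day 3 and 1662 in sham, a ratio of 1.28 (1.12 to 1.46). Of 8 IRF8 targets 5 were at least 1.5-fold above sham. Their counts were low or came from single cells, with 95% of day 3 UMIs of Cd74 and 71.4% of those of Bax in 1 cell each.

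**Figure D5:**
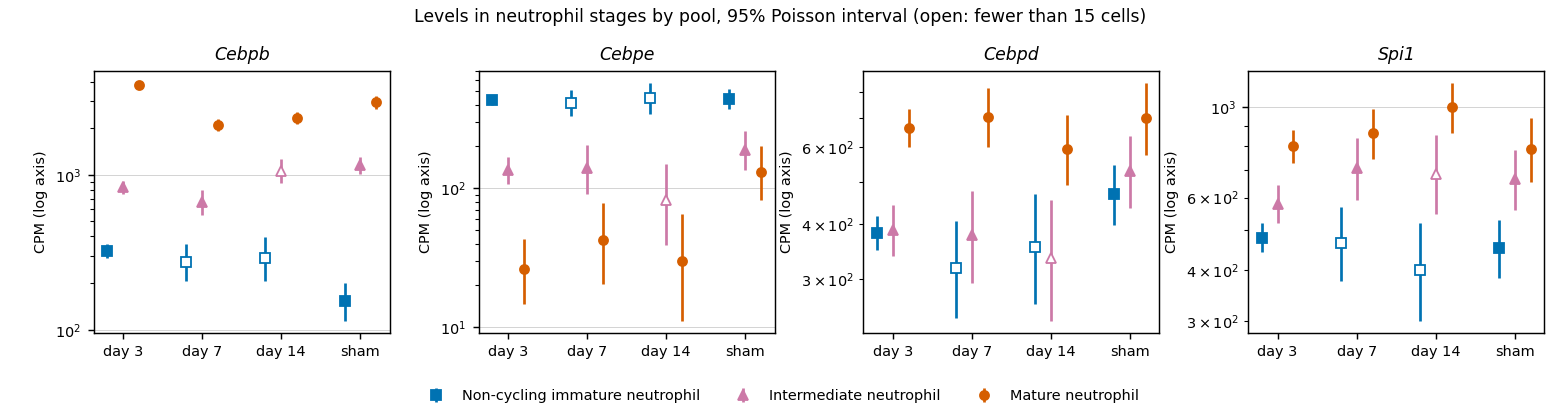
Level of Cebpb, Cebpe, Cebpd and Spi1 by pool in non-cycling immature, intermediate and mature neutrophils, as CPM on log axes with 95% Poisson intervals, 1 pool of 6 mice per condition and open symbols for fewer than 15 cells. Cebpb in mature neutrophils lies at 3772 CPM on day 3, 2090 on day 7 and 2331 on day 14, against 2934 CPM in sham.

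Genes with the most similar pattern were found by Pearson's r of log2(CPM + 10) over the 12 classes with at least 20 cells, among 7986 genes. These classes share 1 capture, and r is a description with no test. Cebpd was closest to Igsf6 (0.991), Clec5a and Alox5ap, Cebpe to Ncam1 (0.975), Ugt8a and Nxn, and, among others, Spi1 to Csf2ra and Ogfrl1. Cebpb was closest to Snx18 (0.951) and Tnfrsf1a, and Irf8 to Slc39a10 (0.948), 2610001J05Rik and Dnpep. Gfi1 was closest to Sec22b (0.939), Cdca7l and 1700123O20Rik, and Cebpa to Ltbr (0.923), Adam15 and Plod3.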

How the data were processed

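The authors deposited UMI counts per gene and per hashtag for each cell barcode, made with Cell Ranger 3.1.0 per the file headers, and mm10 is the build in the submitters' processing notes. The labels name both a v2 and a v3 kit. The deposited gene and hashtag matrices hold the same gene counts over the same 1556 barcodes. These counts were used as deposited, and no normalized value was taken from the authors.

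A barcode was kept as 1 cell of a pool where its top hashtag had at least 10 UMIs and at least 80% of its hashtag UMIs (1359 barcodes), with at least 200 genes and at most 10% mitochondrial UMIs, which left 1285 cells. Barcodes with mixed hashtags were dropped as doublets, 11 neutrophils that also carried markers of another lineage were left out, and doublets within a pool cannot be seen this way. The kept cells held 14626863 gene UMIs in all. Per cell, the medians were 7389 UMIs and 2047 genes detected.

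Cells were placed by marker genes: neutrophils had at least 800 UMIs of neutrophil markers per 10000, except for the S100-low mature class. That class was placed by at least 100 UMIs of mature neutrophil markers per 10000, and held 27392 CPM of the general neutrophil markers. Progenitors had at least 4 of 7 progenitor markers and 20 such UMIs per 10000. Counts were summed per class and pool and fitted across all genes with edgeR 4.0.16 (quasi-likelihood, TMM scaling, pool as block, Benjamini-Hochberg adjustment at 0.05), for pools with at least 5 cells of both classes. Pools pair the classes because both come from the same mice. The script was tested on simulated data. Levels have exact Poisson intervals and ratios between pools exact conditional ones, both at 95%. Ratios between days and sham have 1 pool each and no test. The alternatives were DESeq2 1.42.0 or its size factors, no filter on low counts, no block, no composition scaling, each pool left out, stricter hashtag, mitochondrial or stage limits, pools with at least 3 cells, no S100-low cells, cells thinned to 2000 UMIs, the mean over cells, the top cell left out, and Leiden clusters (scanpy 1.11.5) in place of gates.

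The 7 genes, the gene lists and the tests were chosen with earlier results of these data known. In each list the text names up to 2 of the highest and 2 of the lowest changes past the threshold, and a few genes of day 3 were named after their values were seen. A few genes that the rule would name are not reported here. Gene positions are from GENCODE vM21 on GRCm38. Promoter sequence is from RefSeq on GRCm38.p6.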

Additional observations from a re-analysis of the deposited data

How the results depend on the processing

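Among classes with at least 20 cells, and with both immature classes counted as 1 and both mature classes likewise, 6 of the 7 genes were highest in the same class under all 6 alternatives tried. The exception was Irf8, highest in monocytes by the main gates (438 CPM) and in NK cells with the mean over cells (524), without the top cell (384), with thinned cells (581) and with a mitochondrial limit of 5% (432). Immature against mature neutrophils gave 2431 genes past the threshold and 1531 to 2690 with 1 pool left out. Progenitors against immature neutrophils gave 2141, with 1225 without the filter on low counts, 653 with DESeq2, 4371 with Leiden clusters and 1171 with stricter stage gates. With 2 pools no pool could be left out. B cell precursors against B cells gave 424, with 834 without the replicate block, 964 without the filter on low counts, 278 with DESeq2, 1746 with Leiden clusters, 140 with a mitochondrial limit of 5%, and 96 to 1290 with 1 pool left out. Without the block, Cebpb in progenitors passed as lower (adjusted p = 0.0182). On day 14, 4 gene and class pairs were past 1.5-fold with that mitochondrial limit, and 2 otherwise.

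Some ratios to sham reversed. With cells thinned to 2000 UMIs, Cebpa on day 3 was 0.333 in non-cycling immature and 0.580 in intermediate neutrophils, Cebpd on day 3 was 1.59 in monocytes, Cebpb on day 7 was 0.941 in T cells and Cebpe on day 14 was 1.05 in mature neutrophils. In the Leiden immature clusters, set beside non-cycling immature neutrophils, Cebpb and Gfi1 on day 3 were 0.915 and 0.980. By the gates these clusters held 118 non-cycling and 29 cycling immature, 85 intermediate and 8 mature neutrophils, so the cells compared differ. The causes were not tested. Thinning leaves few UMIs of these genes, and 1 pool per condition limits every statement on days.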
